A study of Mus musculus with 10 samples.

Results

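Tuft cells are rare chemosensory epithelial cells, and the 4 genes described here encode a cytokine they are known for and 3 receptor chains of type 2 immunity. The members, taken by name, were Il25, Il17rb, Il4ra and Il13ra1, and all 4 were among the 12160 genes listed in the deposited table. RNA was measured by Smart-Seq2, a full-length RNA sequencing method for low cell numbers, in 10 libraries of 100 sorted cells from the pancreas of wild type mice with pancreatitis. Pancreatitis was induced in every animal by repeated cycles of caerulein, a cholecystokinin-like peptide that injures acinar cells. The 5 tuft libraries held Cd45-neg, EpCAM+, Siglec f+ cells, each from an individual mouse, and the 5 non-tuft libraries held Cd45-neg, EpCAM+, Siglec f-neg epithelial cells. Both kinds of cells came from 5 mice, but no source used here says whether libraries of the same number share a mouse. The mice were male and of the CD1 strain according to the isolation protocol, while the strain field of the sample records reads Mixed, and no age was given. No uninjured pancreas and no mice without caerulein were analysed here, so the values describe pancreatitis only.

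IL-25 is a cytokine of the IL-17 family that tuft cells release in the intestine, where it acts on group 2 innate lymphoid cells. It binds Il17rb, which signals together with Il17ra, and the lymphoid cells answer with IL-13, which acts back on the epithelium. IL-13 and IL-4 bind receptors that share Il4ra, paired with Il13ra1 on epithelial cells (the type II receptor, for IL-4 and IL-13) or with Il2rg on blood cells (the type I receptor, for IL-4), and both signal through Stat6.

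In the NCBIM37 annotation, the build mm9 that the study mapped to, each member is a protein coding gene that overlaps no other annotated gene. Il25 lies on the plus strand of chromosome 14 (55551608 to 55554671), with 1 transcript of 3 exons and 985 bases. Il17rb lies on the minus strand of the same chromosome (30809327 to 30822082), and its longest transcript has 11 exons and 2575 bases. Il4ra lies on the plus strand of chromosome 7 (132695785 to 132722986) and Il13ra1 on the plus strand of chromosome X (33652105 to 33711254), each with 11 exons in a longest transcript of 5092 and 3712 bases. The values were scaled to length (RPKM), so levels of different members can be set side by side. Il17rb begins 126 bases from Chdh, a choline dehydrogenase gene on the opposite strand, and the pair are transcribed away from each other.

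The sequence before the start is shown, as a description, for the 3 members with a promoter entry. RefSeq promoter entries on GRCm38.p6, a later build than that of the files, were matched for Il17rb, Il4ra and Il13ra1. No entry was found for Il25, so these are not the 3 members that were higher in tuft cells (given further on). Each sequence runs 5′ to 3′ in the direction of its gene and ends at the base before the start site. The capitals mark an exact octamer, the letters that POU domain factors such as Pou2f3 bind. For Il17rb the sequence is the 126 bases before its start (chr14:30008897-30009022, minus strand). It was cut to the distance from Chdh in the NCBIM37 annotation, and the start of Chdh on the later build was not looked up. For Il4ra (chr7:125552021-125552270, plus strand) and Il13ra1 (chrX:36111858-36112107, plus strand) it is 250 bases.
Il17rb: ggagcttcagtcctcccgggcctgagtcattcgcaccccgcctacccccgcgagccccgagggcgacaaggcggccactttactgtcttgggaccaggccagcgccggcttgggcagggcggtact
Il4ra: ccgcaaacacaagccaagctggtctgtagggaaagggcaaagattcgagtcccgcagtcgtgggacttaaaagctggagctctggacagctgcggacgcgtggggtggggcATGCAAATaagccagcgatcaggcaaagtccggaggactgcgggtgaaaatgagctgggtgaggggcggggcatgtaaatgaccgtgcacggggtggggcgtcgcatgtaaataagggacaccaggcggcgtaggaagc
Il13ra1: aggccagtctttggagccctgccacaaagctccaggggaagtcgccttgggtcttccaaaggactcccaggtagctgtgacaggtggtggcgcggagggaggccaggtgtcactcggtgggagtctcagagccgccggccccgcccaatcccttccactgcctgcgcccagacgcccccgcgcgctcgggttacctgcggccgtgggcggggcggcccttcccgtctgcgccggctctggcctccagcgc
Searched on both strands of the 250 bases before the start, the octamer ATGCAAAT was held by Il4ra, at position -139 counted from the start, and by neither Il17rb nor Il13ra1, against 526 of 32851 promoters (1.60%). The palindrome of TTC and GAA set 4 bases apart, a form bound by Stat6, was found in none of these 3 windows and in 1923 of all promoters (5.85%). The windows were rich in G and C, at 72.0% for Il17rb, 59.6% for Il4ra and 70.8% for Il13ra1, against a median of 52.4% over all promoters. A match describes these letters only, and its absence says nothing of the factor.

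Before the members, the libraries were checked against their sort. Siglecf was at 5.62 to 7.52 in the tuft libraries on the deposited scale, log2(RPKM + 1) after quantile normalization, and at the lowest listed value in 4 of 5 non-tuft libraries. All 25 listed genes of 26 tuft cell markers were called higher in tuft cells (the call is defined below), against 4.32% of all listed genes. Of these, 23 were not members (Pou2f3, Trpm5 and Dclk1 by 4.33, 5.19 and 6.54 on the log2 scale). Of 18 acinar markers, 15 were called lower, against 3.99% of all listed genes. The marker lists were chosen with earlier results of these data known, and the tuft list holds the sort gene Siglecf. These counts therefore describe the sort and do not test it. Of 12 ductal markers, 3 were called higher and 1 lower. Ptprc, the gene of Cd45, was called higher in tuft cells (2.74 to 4.33 against 0 to 1.93, adjusted p = 0.00292 from limma) in spite of the Cd45-neg gate. The other 9 listed leukocyte markers of 20 were not called. Among them Cd79b, a B cell receptor gene named after its values were seen, was at 4.38, 0, 3.15, 3.95 and 3.85 in tuft libraries 1 to 5 and 6.22 in non-tuft library 5, with the other non-tuft libraries at their lowest value. None of 8 eosinophil markers was listed, which the authors' filter on variance leaves without meaning for their level. The part of leukocyte RNA in the member values was not tested. Epcam was higher in tuft cells by 1.72 (adjusted p = 0.0329, limma), below the fold threshold used here. The libraries numbered 5 stood apart from the rest of their groups. All 8 listed fibroblast and endothelial markers of 12 were above the lowest value there, with a summed linear level of 754 in non-tuft library 5 (at most 23.1 in the other non-tuft libraries) and 254 in tuft library 5 (0 in the other tuft libraries). Neither these 8 genes nor the 4 listed of 13 lymphoid markers gave a called gene (0 with an unadjusted p under 0.05 from limma), against 25.1% of all listed genes, and the member results are also given without these libraries. Tuft markers were also present in non-tuft cells, where the 23 that are not members summed to 358, 723, 12.7, 11.6 and 862 in libraries 1 to 5, against 5999 to 15280 in the tuft libraries. Read counts were not used here, so library depth is unknown, a gene at 0 may be a failed estimate, and p-values measure the spread between these libraries. The number of listed genes at the lowest value was 2395, 3753, 1442, 2349 and 1627 in non-tuft libraries 1 to 5. It was 2491, 2764, 1751, 2533 and 1538 in tuft libraries 1 to 5. As cells were pooled, fewer cells of a type and less RNA per cell cannot be told apart.

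Il25, Il17rb and Il13ra1 were higher in tuft cells than in the other epithelial cells, and Il4ra did not pass the test. A gene was called when limma's adjusted p was under 0.05 and the fold over 4, which 8.31% of all listed genes met, 4.32% with the higher level in tuft cells and 3.99% with the lower. Of the 4 members, 3 were called, all higher. The groups did not overlap for the same 3 members, as for 6.31% of all listed genes with tuft cells higher.

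**Figure D1:**
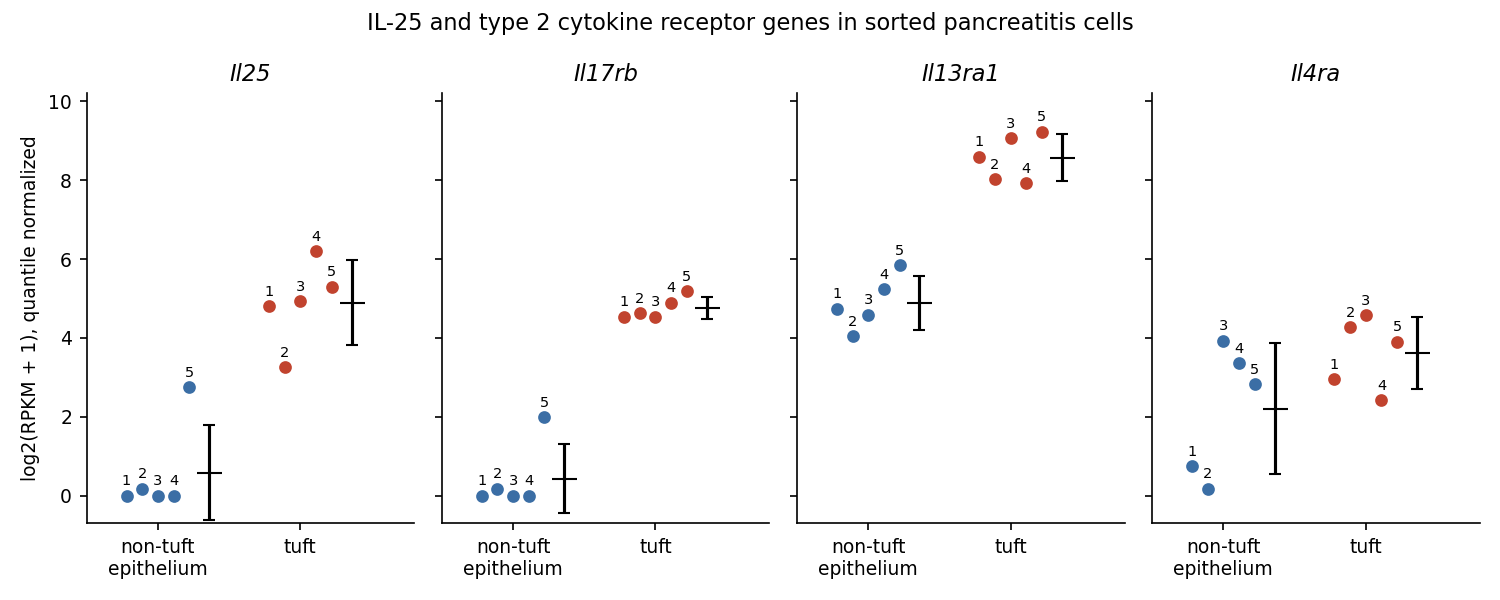
Level of each member in every library, as quantile normalized log2(RPKM + 1), with points numbered by library and bars for the mean ± SD of 5 libraries. Tuft points lie above all non-tuft points for Il25, Il17rb and Il13ra1, with non-tuft library 5 nearest to them, and the groups overlap for Il4ra.

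Il25, the ligand, was at 4.80, 3.26, 4.93, 6.20 and 5.30 in tuft libraries 1 to 5 and at 0, 0.17, 0, 0 and 2.75 in non-tuft libraries 1 to 5 (log2 levels). Of the non-tuft libraries, all but number 5 were at the floor, the lowest value listed in a library, which is 0.17 in number 2 and 0 in the others. Tuft library 2 had the lowest tuft level and exceeded non-tuft library 5 by 0.51. The means were 4.90 ± 1.07 (SD, n = 5) in tuft cells and 0.58 ± 1.21 (SD, n = 5) in non-tuft cells, a difference of 4.31 (SE 0.65, 95% interval 2.91 to 5.72, limma adjusted p = 9.28e-04). Without non-tuft library 5 the difference was 4.85 and the gap between the groups 3.09, and without both libraries numbered 5 the difference was 4.75 (limma adjusted p = 0.00166). On the linear scale tuft libraries differed among themselves by up to 8.50-fold in Il25, the widest range of the 4 members.

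Il17rb, the chain that binds IL-25, separated the groups as Il25 did, but its order within the tuft libraries was another. Its levels were 4.54, 4.63, 4.54, 4.90 and 5.19 in tuft libraries 1 to 5 and 0, 0.17, 0, 0 and 1.99 in non-tuft libraries 1 to 5. The same non-tuft library, number 5, was the only one above the floor, and the groups were 2.55 apart at their nearest values. The mean was 4.76 ± 0.28 (SD, n = 5) against 0.43 ± 0.87 (SD, n = 5), a difference of 4.33 (SE 0.45, 95% interval 3.35 to 5.31, limma adjusted p = 6.04e-05). Without non-tuft library 5 the difference was 4.72, and without both libraries numbered 5 it was 4.61 (limma adjusted p = 1.16e-04). The tuft libraries were closest together in this member, within 1.59-fold on the linear scale, and the share of all listed genes with a lower tuft mean was 83.6% for Il17rb and 85.0% for Il25. Because 1 was added before taking log2, these differences understate the change of such low values.

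Il13ra1, which binds IL-13 and pairs with Il4ra, had the highest level of the members in both groups. It was at 8.60, 8.02, 9.07, 7.93 and 9.23 in tuft libraries 1 to 5 and at 4.74, 4.04, 4.59, 5.23 and 5.84 in non-tuft libraries 1 to 5. Every non-tuft library held Il13ra1 well above the floor, unlike Il25 and Il17rb, and the nearest values of the groups were 2.09 apart. The mean was 8.57 ± 0.59 (SD, n = 5) against 4.89 ± 0.68 (SD, n = 5), a difference of 3.68 (SE 0.45, 95% interval 2.71 to 4.65, limma adjusted p = 1.90e-04), or 12.8-fold on this scale. Its tuft mean exceeded that of 99.0% of all listed genes, and its non-tuft mean that of 85.9%. The difference was 3.92 without non-tuft library 5 and 3.75 without both libraries numbered 5 (limma adjusted p = 0.00120).

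Il4ra, the chain shared by the receptors for IL-4 and IL-13, was the member whose groups overlapped. Its levels were 2.95, 4.27, 4.57, 2.42 and 3.90 in tuft libraries 1 to 5 and 0.75, 0.17, 3.93, 3.36 and 2.83 in non-tuft libraries 1 to 5. Non-tuft libraries 3, 4 and 5 lay within the tuft range, and numbers 1 and 2 lay below it. Numbers 1 and 2 also had the most listed genes at the floor (2395 and 3753), against 1442, 2349 and 1627 in numbers 3 to 5. Among tuft libraries, number 2 had the most such genes (2764) with Il4ra at 4.27. The part of detection in the Il4ra values was not tested. The mean was 3.62 ± 0.91 (SD, n = 5) against 2.21 ± 1.66 (SD, n = 5), a difference of 1.41 (SE 0.73, 95% interval -0.17 to 3.0), which did not pass (limma adjusted p = 0.257). The interval holds 0 as well as differences beyond the threshold of 4-fold, so a change of that size cannot be told from none with these libraries. The difference was 1.57 without non-tuft library 5 and 1.50 without both libraries numbered 5 (limma adjusted p = 0.385). Il4ra also had the largest non-tuft SD of the 4 members.

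The exact two-sided permutation test over libraries gave p = 0.00794 for Il25, Il17rb and Il13ra1, the smallest value that 5 against 5 libraries allow, and p = 0.159 for Il4ra. Within tuft cells, Il13ra1 stood above Il25 by 3.67 ± 1.15 (SD, n = 5 libraries) and was higher in 5 of 5 libraries. Il25 and Il17rb did not differ beyond their spread (0.14 ± 0.97, SD, with Il25 higher in 4 of 5 libraries). Il17rb stood above Il4ra by 1.14 ± 1.00 (SD), higher in 4 of 5, a difference close to its spread. Within non-tuft cells the order was Il13ra1, Il4ra, Il25 and Il17rb. There Il13ra1 stood above Il4ra by 2.68 ± 1.42 (SD) in 5 of 5 libraries, Il4ra above Il25 by 1.62 ± 1.88 (SD), within its spread, and Il25 and Il17rb differed in library 5 alone.

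The chains that form a receptor together were then compared inside each library, a description of 2 pairs that were chosen after the values were seen, and so without a test. Il17ra, the partner of Il17rb for IL-25 and also a chain of other IL-17 receptors, was at 1.37 to 2.80 in the tuft libraries and at 0 to 3.34 in the non-tuft libraries, and its difference of 0.46 did not pass (limma adjusted p = 0.659). Il17rb exceeded Il17ra in all 5 tuft libraries, by 3.17, 2.76, 2.57, 2.10 and 2.73. The same difference was 0, -3.17, -1.97, -1.38 and 0.50 in non-tuft libraries 1 to 5, of which only number 5 had more Il17rb than Il17ra. The group means of 2.66 ± 0.38 and -1.20 ± 1.49 (SD, n = 5) were 3.87 apart, and 4.28 without both libraries numbered 5. With Il17rb at the floor in 4 non-tuft libraries, the value there reflects Il17ra alone.

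**Figure D2:**
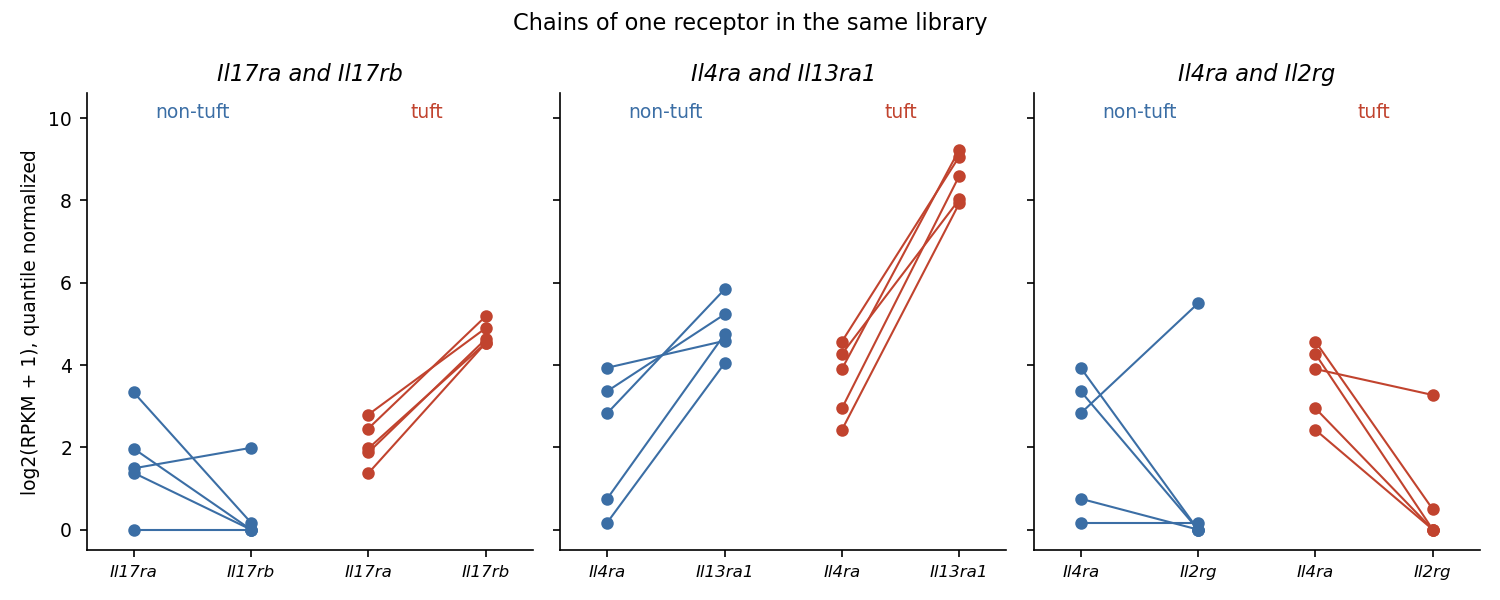
Levels of receptor chains joined by a line for each library, as quantile normalized log2(RPKM + 1), for Il17ra with Il17rb, Il4ra with Il13ra1 and Il4ra with Il2rg. In all 5 tuft libraries the lines rise to Il17rb and to Il13ra1, while Il2rg lies at or near 0 outside the libraries numbered 5.

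Il13ra1 exceeded Il4ra by 5.65, 3.76, 4.50, 5.50 and 5.33 in tuft libraries 1 to 5 and by 3.99, 3.87, 0.65, 1.87 and 3.01 in non-tuft libraries 1 to 5. Il13ra1 was the higher chain everywhere, and the groups overlapped through tuft library 2. The means of 4.95 ± 0.80 and 2.68 ± 1.42 (SD, n = 5) were 2.27 apart, and 2.26 without both libraries numbered 5. Il2rg, the partner of Il4ra in the type I receptor and a chain used by lymphoid cells, stood at 5.50 in non-tuft library 5 and 3.27 in tuft library 5, at 0.49 in tuft library 3 and at the floor elsewhere. Il7r, a receptor chain of lymphoid cells, was likewise at 5.93 and 2.34 in these libraries and at the floor in the other 8. The 4 listed lymphoid markers, of group 2 innate lymphoid and T helper 2 cells, summed to 73.4 on the linear scale in non-tuft library 5. The sum was at most 16.4 in the other non-tuft libraries. It is mostly Il7r in library 5, where Rora, Icos and Gata3 were at 3.27, 2.20 and 1.15 on the log2 scale. In the other non-tuft libraries Rora alone was above the floor, at 2.92 to 4.12. The part of lymphoid RNA in the Il25, Il17rb and Il2rg values of library 5 was not tested. Neither Il2rg (difference -0.38, adjusted p = 0.860) nor Il7r (difference -0.75, adjusted p = 0.700) passed the limma test, and both turned positive, to 0.71 and 0.43, without non-tuft library 5. Il13ra2, the decoy receptor for IL-13, was not listed.

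The level of each member in a non-tuft library was also set against the tuft mean on the linear scale, beside the same share for 20 tuft markers. These were the listed markers, not members, with a tuft mean of at least 4 on the log2 scale, a choice made on the tuft values. It left out Chat, Gnat3 and Plcb2, with tuft means of 2.97, 3.74 and 3.86. Of these, Gnat3 was at 2.46 and 2.91 in non-tuft libraries 1 and 5 and at the floor in the other non-tuft libraries. In non-tuft libraries 1 to 5 the median marker stood at 2.34%, 5.91%, 0%, 0% and 10.9% of its tuft mean. Il25 stood at 16.3% and Il17rb at 11.2% in library 5, and both were at the floor in libraries 1 and 2, where the median marker was above 0. Il13ra1 stood at 6.36%, 3.81%, 5.69%, 9.03% and 13.9%. It was therefore present in libraries 3 and 4, where the median marker was at 0, at a share above that of all 20 markers. Il4ra stood at 5.16%, 0.943%, 108%, 70.3% and 46.1%, of which the value of library 2 is its floor. It was highest in libraries 3 and 4, where the median marker was at 0. The other libraries did not follow that order, as Il4ra was higher in library 5, with the highest median marker, than in library 1. The part of tuft cells or their RNA in the non-tuft values of the members was not tested.

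**Figure D3:**
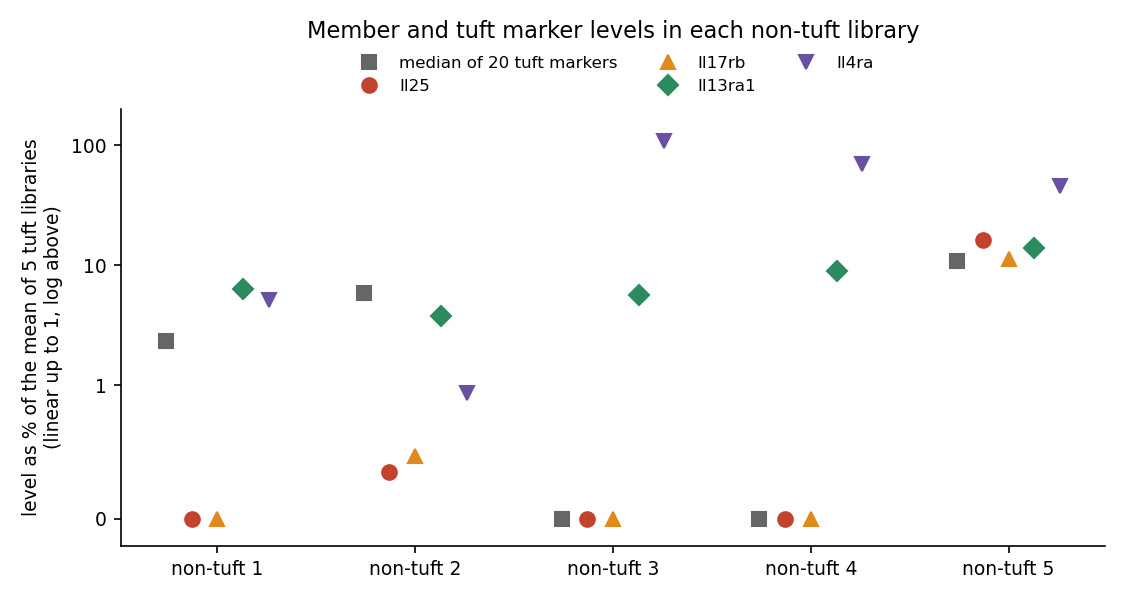
Level of each member in each non-tuft library as a percent of its mean in 5 tuft libraries, on the linear scale (axis linear up to 1, log above), beside the median of 20 tuft markers. In library 5 Il17rb (11.2%) lies near the marker median (10.9%) and Il25 (16.3%) above it, with both at the floor in the others. Il13ra1 stays between 3.81% and 13.9%, and Il4ra reaches 108%.

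The other genes of these pathways were taken from 8 lists of 90 genes in all, of which 63 were listed in the table. Of the 63, 5 were called higher in tuft cells (Il25, Il17rb, Il13ra1, Ptpn6 and Il1rap) and 0 lower, and 15 had an unadjusted p under 0.05 from limma, a measure that 25.1% of all listed genes met. Without the members, 2 of 59 were called, and their median difference was -0.28 against 0.02 over all listed genes. The members thus gave 3 of the 5 calls.

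Among ligands, Il25 was the only IL-17 family cytokine listed, since Il17a, Il17b, Il17c, Il17d and Il17f were not. Of 7 type 2 cytokines and alarmins only Areg, an epidermal growth factor family member, was listed, at the floor in 4 libraries of each group. Il4, Il5, Il9, Il13, Il33 and Tslp were not listed, and the authors' filter removed genes of low variance, so nothing is known here of their levels. Of the 5 IL-17 family receptors, Il17rb alone was called. Il17re, the receptor chain for IL-17C, was at 2.47 ± 1.53 (SD, n = 5) in tuft and 3.24 ± 1.16 (SD, n = 5) in non-tuft libraries, a difference of -0.78 (limma adjusted p = 0.565). Il17rc and Il17rd differed by -0.39 and -1.25 and did not pass either (limma adjusted p = 0.633 and 0.296).

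Downstream of the IL-17 receptors, 0 of 18 listed signaling genes were called by limma, with 3 at an unadjusted p under 0.05, against 8.31% and 25.1% of all listed genes, and the median difference was -0.16. Nfkbia, the inhibitor of NF-kappaB, and Tab2, an adaptor of the kinase Map3k7, had the highest levels of this list and differed by -0.57 and -0.17 (limma adjusted p = 0.419 and 0.881). Both signs were positive when each library was centred on its mean over 80 genes of ribosomal proteins, as were those of Il17re, Il17rc, Il2rg, Il7r, Areg and Jak1, since that centring moved the median difference of all listed genes from 0.02 to 0.82.

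Of 18 listed genes that act below the IL-4 and IL-13 receptors, Ptpn6 alone was called. Ptpn6, the phosphatase Shp1, which dampens cytokine receptor signaling, was at 6.71 to 7.99 in tuft libraries and 0.0074 to 4.62 in non-tuft libraries, without overlap. Its difference of 4.87 (SE 0.75, limma adjusted p = 0.00106) was larger than that of any member, and was 5.24 without both libraries numbered 5 (limma adjusted p = 0.00416). Stat6, the transcription factor of both receptors, was at 4.54, 3.21, 4.37, 4.91 and 4.57 in tuft libraries 1 to 5 and at 1.34, 2.29, 3.25, 3.78 and 3.51 in non-tuft libraries 1 to 5. Its groups overlapped through tuft library 2, and the difference of 1.49 did not pass (SE 0.53, limma adjusted p = 0.0917) except with ribosomal centring (2.29), with a limma adjusted p of 0.0167 to 0.179 over the alternatives and 0.163 without both libraries numbered 5. Jak1, a kinase bound to Il4ra, was at 4.38 ± 0.49 in tuft and 4.66 ± 0.77 (SD, n = 5) in non-tuft libraries, a difference of -0.28 (limma adjusted p = 0.750). Shc1, an adaptor below many receptors, differed by -1.63 without passing (SE 0.50, limma adjusted p = 0.0522). Its limma adjusted p was 0.0138 to 0.341 over the alternatives, 0.0259 with the replicate block and 0.132 without both libraries numbered 5, and its difference stayed below the fold threshold in each.

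**Figure D4:**
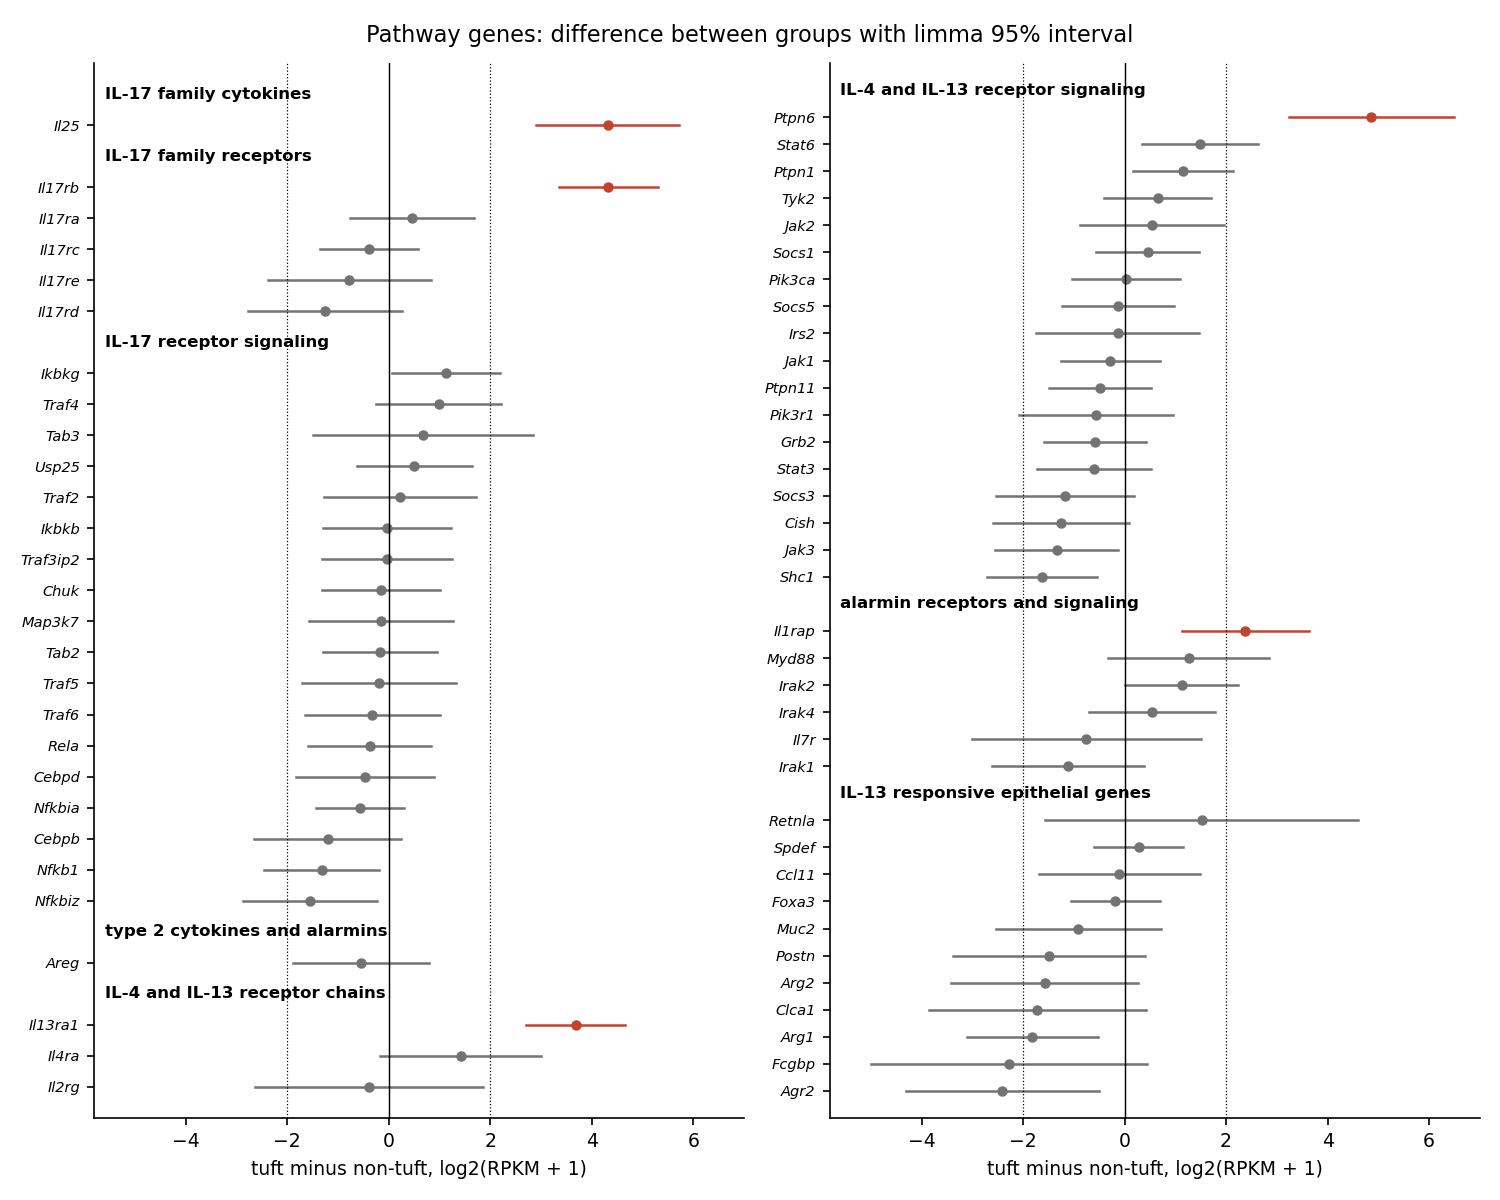
Difference of tuft minus non-tuft means on the log2(RPKM + 1) scale for the 63 listed pathway genes by list, with limma's 95% intervals, red for called genes and dotted lines at a 4-fold difference. Il25, Il17rb, Il13ra1, Ptpn6 and Il1rap are called, all higher in tuft cells.

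For the receptors of the other epithelial alarmins, Il1rl1 and Crlf2, the binding chains for IL-33 and TSLP, were not listed. Il1rap, the chain that IL-33 and IL-1 receptors share, was called (4.44 ± 0.81 against 2.06 ± 1.13, SD, n = 5, a difference of 2.38, SE 0.58, limma adjusted p = 0.0168), with overlap between the groups, and was the only called gene of 6 listed. Its limma adjusted p was 0.0802 without both libraries numbered 5 and between 0.00285 and 0.0461 under the other alternatives. Irak1, a kinase of these receptors, differed by -1.11 (limma adjusted p = 0.356).

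Among 11 listed genes of 21 known to answer IL-13 in epithelium, 0 were called by limma, with 2 at an unadjusted p under 0.05, against 8.31% and 25.1% of all listed genes, and the median difference was -1.49. Most of this list was at the floor in tuft cells, Arg1, Arg2, Fcgbp, Postn and Ccl11 in 4 tuft libraries and Clca1 and Muc2 in 5. In non-tuft cells Ccl11 and Muc2 were at the floor in 4 libraries, Clca1 in 3, Arg2 in 2, Arg1 in 1, and Fcgbp and Postn in 0. Fcgbp, Clca1 and Muc2 were highest in non-tuft library 4, at 8.51, 6.13 and 4.37. The median difference of the list is that of Postn, which was at 4.01 in tuft library 5 and at 4.37 in non-tuft library 5. Agr2, a secretory pathway disulfide isomerase, was at 3.16 to 7.11 in tuft and 6.64 to 9.30 in non-tuft libraries (difference -2.41, limma adjusted p = 0.101). Spdef, a goblet cell transcription factor, was at 4.61 ± 0.48 in tuft and 4.32 ± 0.53 (SD, n = 5) in non-tuft libraries (limma adjusted p = 0.713). Retnla reached 8.88 in tuft library 3 alone, and its difference of 1.52 (limma adjusted p = 0.558) became -0.22 without that library. The macrophage genes Lyz2 and Csf1r stood at 4.92 and 2.69 there. Lyz2 was also at 3.86 in non-tuft library 4 and Csf1r at 1.72 in non-tuft library 2, where Retnla was at the floor. Lyz2 and Csf1r were picked from the leukocyte markers after their values were seen. Of the same markers, Cd68 was highest in tuft library 3, at 1.67. Cd14 went the other way, at 3.90 in tuft library 3 against 6.06 in tuft library 4 and 7.08 in non-tuft library 4. The source of the Retnla RNA was not tested. Chdh, the neighbour of Il17rb, was at 2.73 to 4.28 in tuft and 0.42 to 3.18 in non-tuft libraries, and its difference of 1.72 did not pass (limma adjusted p = 0.103) except with ribosomal centring (2.52), with a limma adjusted p of 0.0204 to 0.329 over the alternatives.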

How the data were processed

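Libraries were assigned to the tuft and non-tuft groups, and numbered, from the titles of the sample records. Per the labels and the methods, the authors checked single-end reads with FastQC, mapped them to mm9 with HISAT2, quantified RPKM with StringTie and Ballgown, removed genes with an RPKM variance under 1, and quantile normalized log2(RPKM + 1). The deposited table holds these log2 values for 12160 genes. The authors' fold ratio, p-value and false discovery rate columns were deposited beside them and were not used. Strandedness was not given in the sources used here. No read counts were used, so no counting interval is given.

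All listed genes were fitted with limma 3.58.1 (lmFit and eBayes, default settings, no covariates) in R 4.3.3, with Benjamini-Hochberg adjustment over all of them. The thresholds were those of the study. The fit was tested on simulated data. Single values were also compared by exact two-sided permutation over 252 splits in scipy 1.17.1. Shares used values returned to the linear RPKM scale, divided by the tuft mean.

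Members, gene lists and tests were chosen with earlier results of these data known. The named genes were the members, in each pathway list the genes with a limma adjusted p under 0.05 and the 2 with the highest mean level, the genes of the sort antibodies, 3 tuft markers, and for each member the 3 genes of the highest Pearson r among those averaging at least 2 on the log2 scale. Il17ra, Il17rc, Il17rd, Il2rg, Il7r, Stat6, Shc1, Retnla, Lyz2, Csf1r, Cd68, Cd14, Cd79b and Chdh were named after their values were seen. Alternatives were a block for the replicate number, adding 0.1 or 10 instead of 1, a minimum mean level, ribosomal centring, trended and robust eBayes, other call thresholds and each library left out. A common floor of 0, leaving out both libraries numbered 5, and the receptor chain pairs with their alternatives were added after seeing the data.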

Additional observations from a re-analysis of the deposited data

Results flagged for a closer look

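In each group of 5 libraries, the highest or lowest value was compared with its nearest neighbour relative to the whole range, for the 29 genes with named values. The gap exceeded Dixon's 95% critical value of 0.71 in 12 of 58 groups. Many of these groups are otherwise at the floor, where a single value stands apart by construction. Il2rg, Il7r, Il17rd and Retnla, all among the flagged genes, were named after their values were seen. The count can therefore not be set against a chance rate. In non-tuft library 5 the gap exceeded the critical value for Il25 (2.75), Il17rb (1.99), Il2rg (5.50) and Il7r (5.93). In tuft library 5 it did so for Il2rg (3.27), Il7r (2.34) and Il17rd (0.22). Areg stood apart in tuft library 4 (0.76) and non-tuft library 4 (3.32), and Retnla in tuft library 3 (8.88) and non-tuft library 3 (1.81). Siglecf, the gene of the sort marker, stood apart in non-tuft library 2 (1.61).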

How the results depend on the processing

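Il25, Il17rb and Il13ra1 were higher in tuft cells and were called under every alternative except that, with 10 instead of 1 added before log2, Il25 (1.88, limma adjusted p = 0.00352) and Il17rb (1.78, limma adjusted p = 2.93e-05) fell below the fold threshold, as adding a larger constant shrinks differences of low values. With that constant 1 member, 2 pathway genes and 278 of all listed genes were called, against 3, 5 and 1010, and Il1rap (1.18) and Ptprc (0.91) were no longer called. Il4ra was called under no alternative, between 0.54 with 10 added and 2.21 with ribosomal centring (limma adjusted p between 0.0764 and 0.463). The limma adjusted p over all alternatives lay between 2.47e-04 and 0.00484 for Il25, 1.47e-05 and 0.00120 for Il17rb, and 1.46e-05 and 0.00153 for Il13ra1. Leaving out a library, or both numbered 5, gave 3.99 to 4.85 for Il25, 4.22 to 4.72 for Il17rb, 0.90 to 1.84 for Il4ra, 3.47 to 3.92 for Il13ra1, 3 called members, 4 to 6 called pathway genes, 806 to 1010 called genes, 3.38 to 4.29 for Il17rb minus Il17ra and 1.76 to 2.60 for Il13ra1 minus Il4ra. Il17rb minus Il17ra was 5.72 with 0.1 added and 1.70 with 10 added, as low values move most with the constant. Il1rap lost its call without both libraries numbered 5 (2.37), with fewer libraries tested.

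With ribosomal centring the split of calls over all genes moved from 525 higher and 485 lower to 1289 and 225, and genes below the threshold changed sign, namely Il17re (0.020), Nfkbia (0.23), Tab2 (0.63), Areg (0.25), Jak1 (0.52), Il17rc (0.41), Il2rg (0.42) and Il7r (0.046), while Epcam (2.51), Stat6 (2.29) and Chdh (2.52) became called. At an adjusted p under 0.01, 680 of all genes were called. Leaving out libraries also gave both signs, without passing, for Jak1 (-0.48 to 0.018), Tab2 (-0.49 to 0.090), Areg (-0.72 to 0.11), Il2rg (-1.01 to 0.71, and 0.081 without both numbered 5), Il7r (-1.22 to 0.43) and Retnla (-0.22 to 2.00), and the cause was not tested. Libraries of the same number were not taken as pairs, because no source used here ties a number to a mouse. Their deviations from the group means correlated at 0.062 to 0.24 (3 of 5 pairs over 0.1, and 3 of 5 tuft libraries best with their own number) against -0.17 to 0.14 for different numbers, so pairing by mouse is possible. The replicate block gave 3 called members, 5 called pathway genes and 1009 called genes, and changed no call of a member. Without depth, low values such as those of Il25 and Il17rb in non-tuft cells carry an unknown counting error.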

Other observations

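The genes whose values were most like those of each member over the 10 libraries are given as a description, by Pearson's r among the 7270 genes that averaged at least 2 on the log2 scale. All points share their libraries and the difference between the groups, so r is high for any gene far apart between them. Nearest to Il25 were Oas1a (r = 0.987), Gm4952 (r = 0.986) and Skap2 (r = 0.966). Nearest to Il17rb were Wnt5a (r = 0.994), 1700016C15Rik (r = 0.992) and Gfi1b (r = 0.989), the last also a tuft cell marker. For Il13ra1 they were Bglap3 (r = 0.981), Aldh3a2 (r = 0.981) and Actr2 (r = 0.973), and for Il4ra they were Vapa (r = 0.953), Vwa5a (r = 0.938) and Aspscr1 (r = 0.935). Among the members, r was 0.963 for Il25 with Il17rb, 0.924 for Il25 with Il13ra1 and 0.967 for Il17rb with Il13ra1, and lay between 0.428 and 0.616 for Il4ra with the others.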
